A study of Mus musculus with 8 samples.

Results

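The enzymes described here write and erase chemical marks on histones and DNA: lysine demethylases, the KMT2 and SETD methyltransferases, histone deacetylases, sirtuins, lysine acetyltransferases, PRDM proteins, TET dioxygenases and DNA methyltransferases. Members were taken by gene symbol from probe sets that the platform annotation assigns to a single gene, with the brightest probe set standing for each gene. The rule itself uses no measured change, but it was chosen with earlier results of these data known. The rule found 78 genes of the 19938 named genes on the array, in 8 families. A single member, Dnmt3aos, is an antisense RNA of Dnmt3a, and the other 77 carry the names of enzymes or enzyme-like proteins. Several PRDM proteins act as DNA-binding factors more than as enzymes. Of the 78 members, 61 had a mean signal above the median of all named genes.

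The study profiled mouse bone marrow derived macrophages (BMDM), cells grown from marrow precursors in culture, on Affymetrix gene arrays after 6 h. There were 4 groups of 2 arrays each: untreated cells, cells given interferon gamma with lipopolysaccharide (called IFN gamma/LPS), cells given the cytokines IL4 and IL13 together (called IL4/IL13), and cells given all of LPS, IL4 and IL13 (called LPS/IL4/IL13). The sources used here do not give strain, age, doses or the number of animals. No group received LPS alone, so a difference between LPS/IL4/IL13 and IFN gamma/LPS combines the presence of IL4 and IL13 with the absence of IFN gamma. Whether both arrays of a group stem from independent cultures or mice is not stated, and the p-values therefore reflect only how far these samples scatter, possibly for technical reasons.

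Acetyl groups on histone tails open chromatin and are added by acetyltransferases and removed by deacetylases and sirtuins, while lysine methylation can mark active or silent genes depending on the residue. DNA methyltransferases place methyl groups on cytosine, and TET dioxygenases oxidise them as a step of their removal. In macrophages such enzymes are known to act downstream of NF-kB and STAT factors at inflammatory genes: Kdm6b removes the Polycomb mark, Setdb2 deposits a silencing mark at NF-kB targets, and Tet2 recruits a deacetylase to Il6.

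The promoter sequences of 4 members are shown because their transcripts carry the responses described below and because they differ in the STAT letters they hold. Setdb2 and Tet2 rose in both LPS-containing groups, Setd7 fell in both, and Hdac4 fell in IFN gamma/LPS and was higher in LPS/IL4/IL13 than there. Each runs 5′ to 3′ from 250 bases before to 50 bases after the RefSeq start on GRCm38.p6, all on the minus strand: Setdb2 chr14:59440831-59441130, Tet2 chr3:133544341-133544640, Setd7 chr3:51560774-51561073 and Hdac4 chr1:92180292-92180591. Capitals mark a STAT-type match.
Setdb2: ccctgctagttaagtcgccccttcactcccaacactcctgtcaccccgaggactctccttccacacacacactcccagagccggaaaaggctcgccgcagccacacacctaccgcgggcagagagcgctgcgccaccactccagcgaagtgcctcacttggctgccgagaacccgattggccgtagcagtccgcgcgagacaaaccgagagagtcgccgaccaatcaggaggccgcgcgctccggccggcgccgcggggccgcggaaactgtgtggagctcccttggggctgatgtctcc
Tet2: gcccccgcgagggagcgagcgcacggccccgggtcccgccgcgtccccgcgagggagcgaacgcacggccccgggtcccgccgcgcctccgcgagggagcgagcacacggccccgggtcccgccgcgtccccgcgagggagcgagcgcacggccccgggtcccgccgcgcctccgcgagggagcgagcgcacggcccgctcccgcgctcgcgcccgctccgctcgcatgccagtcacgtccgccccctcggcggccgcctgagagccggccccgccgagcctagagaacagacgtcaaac
Setd7: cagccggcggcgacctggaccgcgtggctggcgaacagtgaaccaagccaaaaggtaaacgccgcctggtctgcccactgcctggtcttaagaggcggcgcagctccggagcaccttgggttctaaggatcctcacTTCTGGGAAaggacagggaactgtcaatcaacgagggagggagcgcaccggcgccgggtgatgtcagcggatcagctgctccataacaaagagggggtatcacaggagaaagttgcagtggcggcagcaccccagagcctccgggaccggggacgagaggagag
Hdac4: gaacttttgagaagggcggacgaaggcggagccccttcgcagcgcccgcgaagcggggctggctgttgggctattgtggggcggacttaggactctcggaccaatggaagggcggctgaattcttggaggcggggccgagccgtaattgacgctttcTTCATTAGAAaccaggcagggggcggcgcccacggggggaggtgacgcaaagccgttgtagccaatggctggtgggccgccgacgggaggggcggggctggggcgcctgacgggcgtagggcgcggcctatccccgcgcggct
The capitals in Setd7 are the gamma-activated site letters TTCNNNGAA, starting at base 137 of the window, and those in Hdac4 are the wider STAT6 spacing, TTC and GAA with any 4 bases between them, starting at base 158. No match to the 4 motifs searched was found in the Setdb2 and Tet2 windows. All 4 windows are rich in G and C, at 66.3% for Setdb2, 81.3% for Tet2, 62.7% for Setd7 and 68% for Hdac4. Of the 78 members, 63 had a promoter window in the RefSeq table. On both strands, TTCNNNGAA was present in 7 of them (11.1%, against 9.55% of the windows of 27025 genes), the STAT6 spacing in 3 (4.76% against 8.01%), the interferon response element (GAAA, any 2 bases, GAAA) in 1 (1.59% against 3.99%) and the NF-kB consensus in 11 (17.5% against 9.55%). These are letter matches in a short window and say nothing of binding.

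The labelled cell type and treatments were checked on marker genes. All 8 macrophage markers lay above the median gene, as did 3 of 8 neutrophil, 2 of 7 T and NK cell, 1 of 4 B cell, 1 of 6 dendritic cell, 4 of 5 fibroblast, 0 of 1 erythroid and 0 of 5 mast cell markers. Of the 8 macrophage markers, 2 rose and 5 fell in each LPS-containing group, and 0 rose and 4 fell under IL4/IL13. The log2 of their sum was 15.30 to 15.31 in untreated cells and 15.08 to 15.19 in the treated groups. The log2 of the summed dendritic cell markers was 8.24 to 8.37 in untreated cells, 9.95 to 10.03 in IFN gamma/LPS, 8.55 to 8.64 in IL4/IL13 and 8.78 to 8.86 in LPS/IL4/IL13, with 4 of 6 higher in IFN gamma/LPS, among them Ccr7 by 2.94 and Xcr1 by 2.25. The B cell sum was 7.56 to 7.72 in IFN gamma/LPS and 8.36 to 8.69 in the other groups, and of its 4 markers 1, Cd79b, fell in IFN gamma/LPS, by 1.12. The T and NK sum was 9.01 to 9.04 in untreated cells and 8.57 to 8.80 in the treated groups. Of its 7 markers only Cd4 fell in each treatment, and 1 other rose in IFN gamma/LPS and 1 in IL4/IL13. The median log2 change of the 7 was 0.215 in IFN gamma/LPS, 0.20 in IL4/IL13 and 0.04 in LPS/IL4/IL13. The neutrophil sum was 9.87 to 9.92 without LPS and 9.46 to 9.66 with it. Of its 8 markers, 0 rose and 2 fell in IFN gamma/LPS, while 2 rose and 2 fell in LPS/IL4/IL13. Of the 5 fibroblast markers 1, Dcn, rose, by 1.37 in IFN gamma/LPS and 1.75 in LPS/IL4/IL13, and the other 4 did not pass. The part of these markers in the results below was not tested. Nos2, the inducible nitric oxide synthase, rose by 7.08 under IFN gamma/LPS and 6.72 under LPS/IL4/IL13, and Arg1, which breaks down arginine, rose by 3.45 under IL4/IL13 and 5.48 under LPS/IL4/IL13. Retnla and Irf4, both induced by IL4, rose under IL4/IL13 by 5.55 and 3.05 but gave -0.19 (adjusted p = 0.425, limma) and -0.46 (adjusted p = 0.024) in LPS/IL4/IL13. RNA from whole cultures was measured, so fewer cells of a type and less RNA per cell cannot be told apart.

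In IFN gamma/LPS against untreated cells, 17 members rose and 37 fell at an adjusted p under 0.05 (limma, adjusted over all 19938 genes). Over all genes 23.6% rose and 28.4% fell, 51.9% in either direction. Because most members are well expressed, the closer background is the genes above the median signal, of which 26% rose and 48.9% fell, against 15 and 34 of the 61 members above it. The fall of many members is thus near the share of all well-expressed genes. Errors written as ± are standard errors of this fit, with 2 arrays per group. The median log2 change was -0.215 over the members and 0.105 over all genes. Above the median signal it was -0.385 over the 61 members and -0.25 over all genes. At least 2-fold changes were seen for 6 members that rose and 13 that fell, beside 5.84% and 11.2% of all genes. Of the 61 members above the median signal, 6 rose and 12 fell at least 2-fold, beside 1053 and 1973 of 9967 such genes, a near share for the falls. When any 1 of the 4 arrays was left out in turn, 12 of the 17 and 31 of the 37 kept their call each time.

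Under IL4/IL13, 5 members rose (6.41%) and 11 fell (14.1%), near the 7.83% and 12.3% of all genes (20.2% in either direction). Of the genes above the median signal, 11.5% rose and 21.8% fell. No member reached 2-fold, which only 1.07% and 1.37% of all genes did upward and downward. The rises were Tet2, Hdac9, Kdm6b, Kat2a and Sirt6, and the falls were 5 demethylases, Setd7, Setdb2, Hdac5, Sirt7, Kat2b and Dnmt1. Only 4 calls held in every fit with 1 array left out, the rises of Tet2 (0.69), Hdac9 (0.66) and Kat2a (0.59) and the fall of Setd7 (-0.66). The count of members that fell dropped to 1 without untreated array 1, 3 without untreated array 2, 7 without IL4/IL13 array 1 and 2 without IL4/IL13 array 2. Under LPS/IL4/IL13, 15 rose and 34 fell against untreated cells, beside 20.3% and 25.4% of all genes (45.6% in either direction) and 25.7% and 43.1% of those above the median signal. Of these, 6 rose and 8 fell at least 2-fold, beside 5.18% and 8.71% of all genes, and 11 of the 15 and 26 of the 34 held in every fit with 1 array left out.

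**Figure D1:**
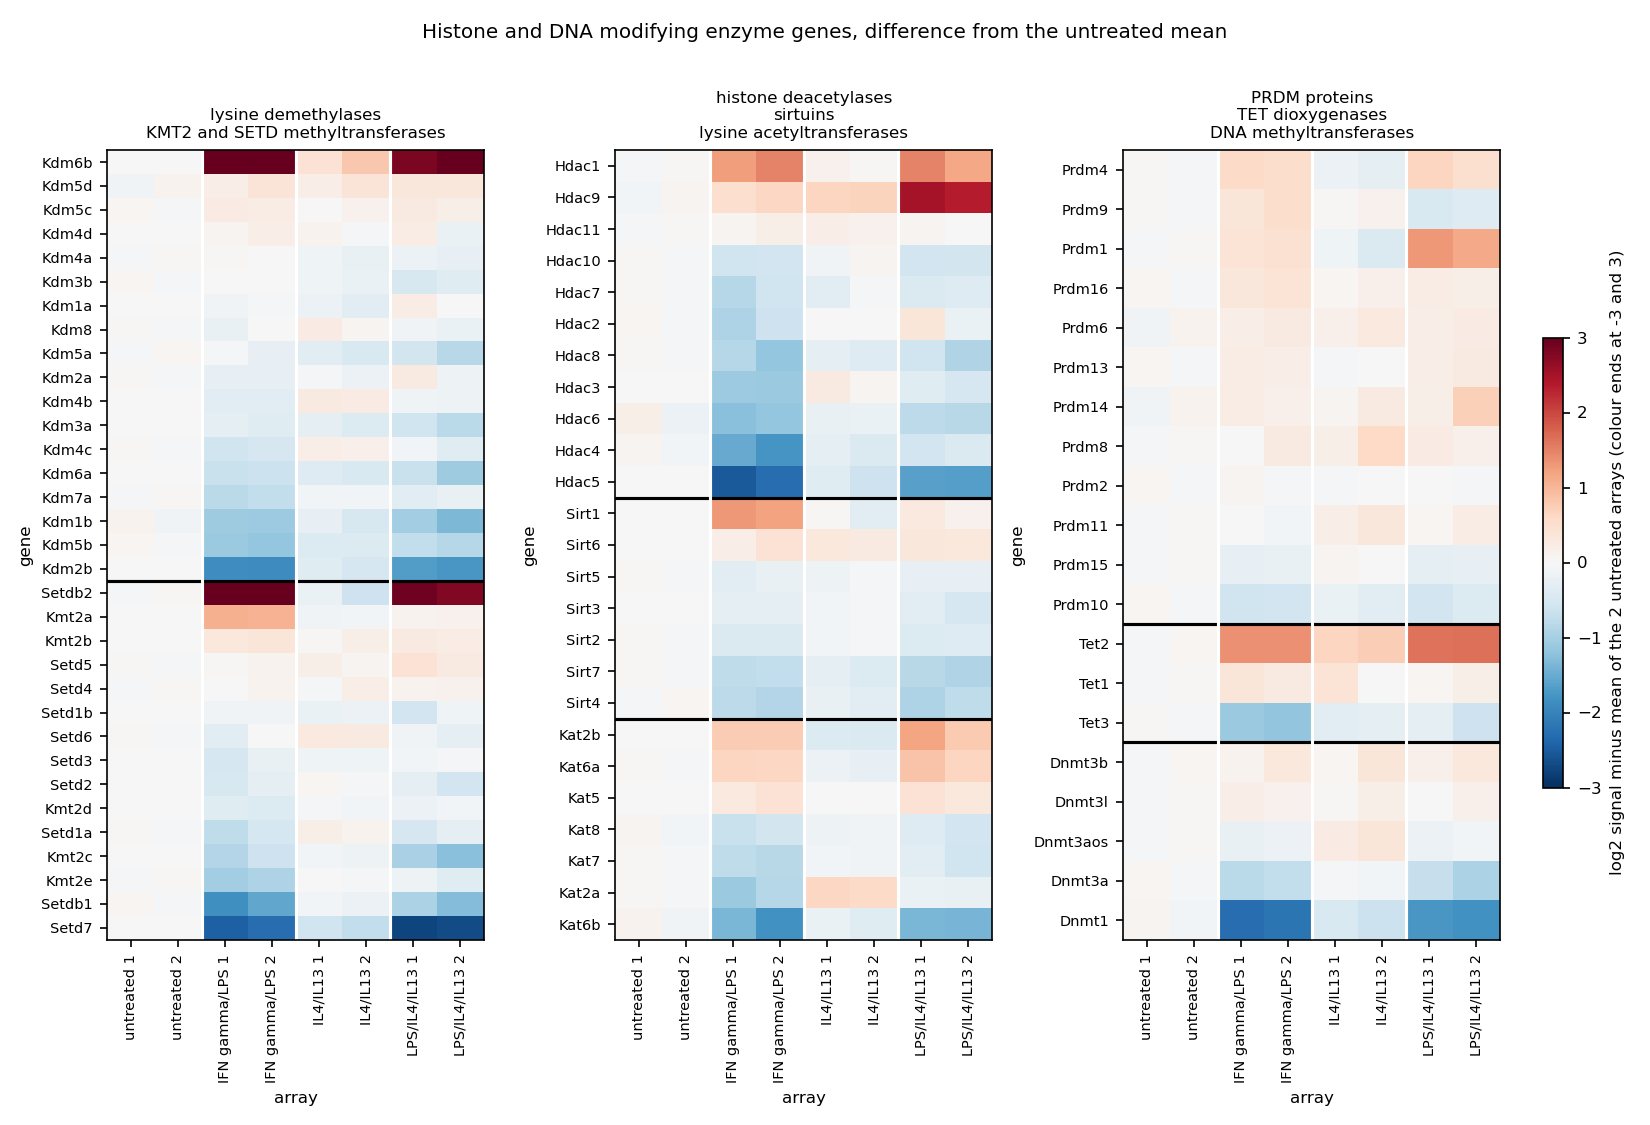
Log2 signal of each member on each of the 8 arrays, shown as the difference from the mean of the 2 untreated arrays, with members ordered by family and the colour scale ending at -3 and 3. Kdm6b and Setdb2 stand highest in the LPS-containing groups, Hdac5, Setd7 and Dnmt1 lowest in IFN gamma/LPS, and the columns of IL4/IL13 stay closest to the untreated ones.

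Among the 18 lysine demethylases, 2 rose and 8 fell in IFN gamma/LPS as well as in LPS/IL4/IL13, and the 8 falls (44.4%) lie near the 48.9% and 43.1% of genes above the median signal that fell. Their median log2 change was -0.19 and -0.215, against -0.25 and -0.15 over those genes. Kdm6b, which removes the Polycomb methyl mark from histone H3, gave the highest rise of any member. Its log2 signal was 7.11 and 7.09 in untreated cells, 11.36 and 11.29 in IFN gamma/LPS, 7.53 and 7.90 in IL4/IL13 and 9.92 and 10.16 in LPS/IL4/IL13. The groups did not overlap, and the combined treatment lay between IL4/IL13 and IFN gamma/LPS. The rise was 4.22 ± 0.12 (SE) in IFN gamma/LPS (18.7-fold, limma adjusted p = 5.39e-11) and 2.94 in LPS/IL4/IL13 (7.67-fold, adjusted p = 1.46e-09), a difference between those groups of -1.28 ± 0.12 (adjusted p = 1.07e-05). The rise of 0.61 under IL4/IL13 (adjusted p = 0.0036) did not hold without IL4/IL13 array 2. The second demethylase called higher was Kdm5c, at 0.24 in IFN gamma/LPS, which lost its call whichever of the 4 arrays was left out, and at 0.22 in LPS/IL4/IL13, lost without untreated array 1, untreated array 2 or LPS/IL4/IL13 array 1. Kdm6b alone then remained.

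Kdm6a, the X-linked relative of Kdm6b that removes the same mark, went the other way. Its signal was 9.55 and 9.58 in untreated cells, 8.89 and 8.93 in IFN gamma/LPS, 9.18 and 9.10 in IL4/IL13 and 8.89 and 8.51 in LPS/IL4/IL13. Both LPS-containing groups lay below all other arrays. It fell by 0.65 ± 0.11 in IFN gamma/LPS (limma adjusted p = 0.000373) and by 0.86 in LPS/IL4/IL13 (adjusted p = 4.35e-05). Kdm2b, which recruits a variant Polycomb complex to unmethylated CpG islands, was at 8.07 and 8.06 in untreated cells, 6.20 and 6.18 in IFN gamma/LPS, 7.70 and 7.56 in IL4/IL13 and 6.39 and 6.33 in LPS/IL4/IL13. Its arrays with LPS lay more than a log2 unit below the rest, with falls of 1.88 ± 0.10 and 1.71 ± 0.10. Of the other demethylases, Kdm5b, which acts on the methyl mark of active promoters, fell by 1.14 and 0.79, and Kdm1b, a flavin-dependent enzyme, fell by 1.07 and 1.19.

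**Figure D2:**
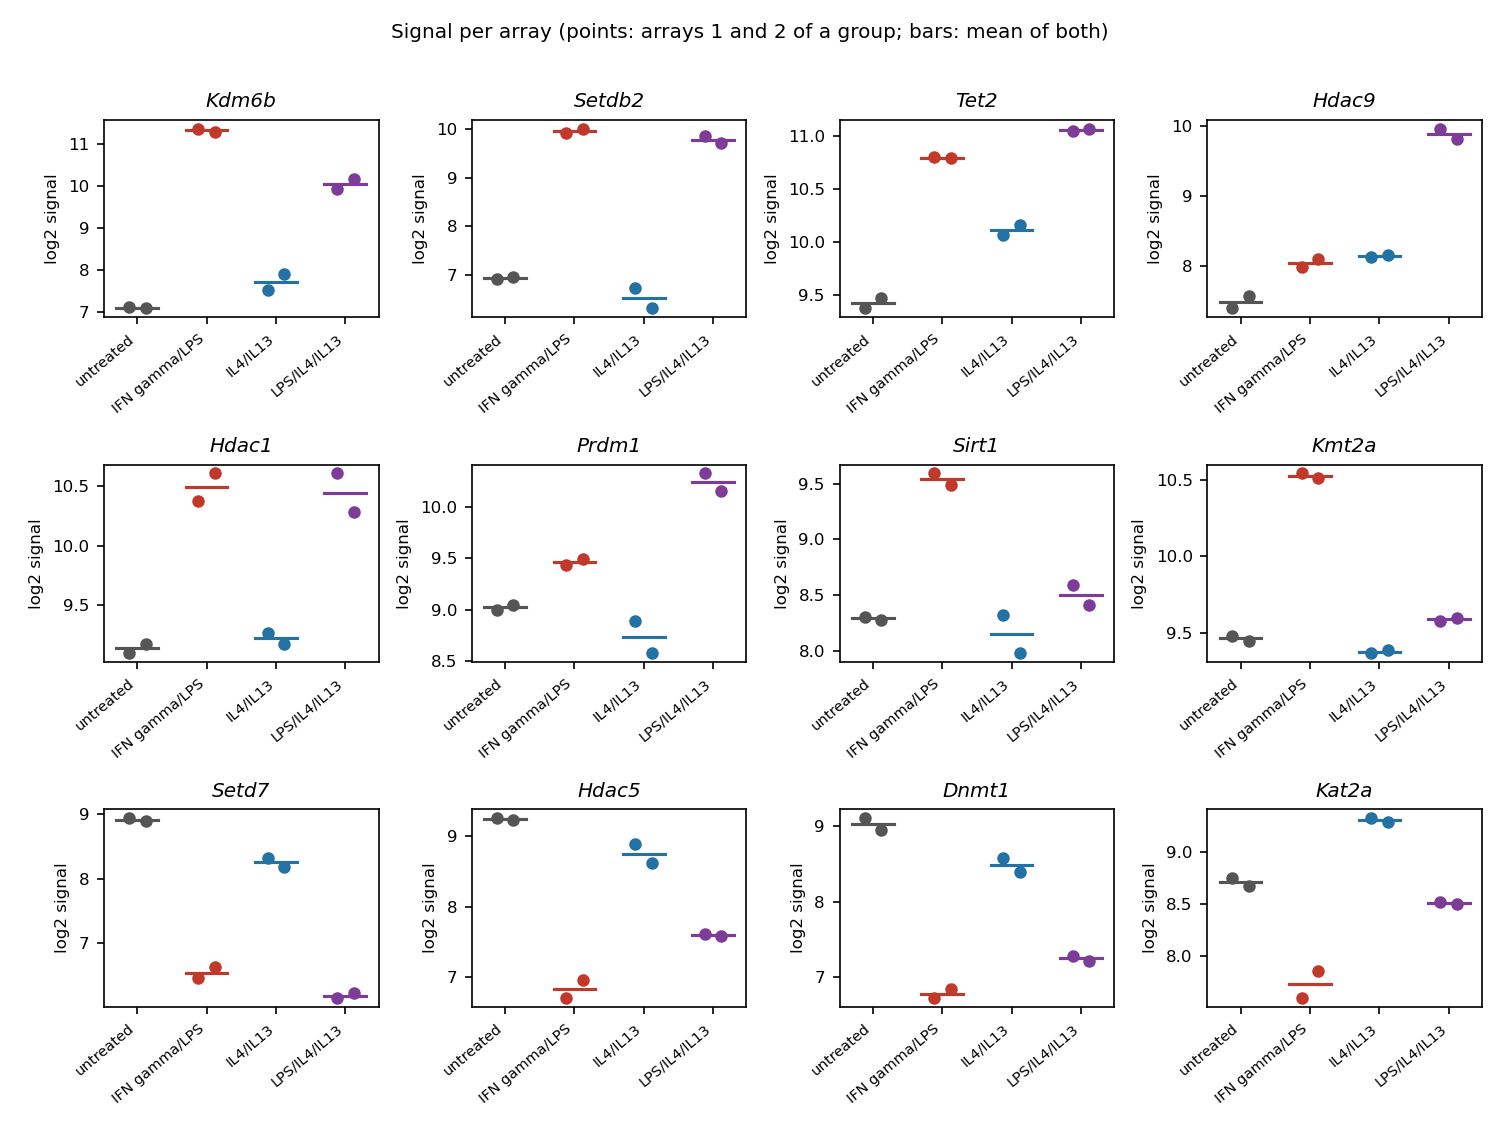
Log2 signal of 12 members with large called changes, 1 point per array and 2 arrays in each of the 4 groups, with a bar at each group mean. The vertical scale differs between genes. The IFN gamma/LPS arrays of Kdm6b (11.36 and 11.29) lie above all others, and the arrays of both LPS-containing groups overlap for Hdac1.

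Among the 15 KMT2 and SETD methyltransferases, 3 rose and 8 fell in IFN gamma/LPS, and 3 rose and 7 fell in LPS/IL4/IL13; without untreated array 1 the latter falls were 4. The 53.3% and 46.7% that fell are near the 48.9% and 43.1% of genes above the median signal, and the median log2 changes were -0.365 and -0.20. Setdb2, a silencing histone methyltransferase of the SETDB type, was at 6.91 and 6.96 in untreated cells, 9.93 and 10.01 in IFN gamma/LPS, 6.73 and 6.31 in IL4/IL13 and 9.85 and 9.72 in LPS/IL4/IL13. All 4 arrays with LPS lay far above the 4 without. The rise was 3.03 ± 0.13 (8.2-fold, limma adjusted p = 1.22e-09) in IFN gamma/LPS and 2.85 ± 0.13 (7.21-fold) in LPS/IL4/IL13, and the difference of -0.18 between these groups did not pass (adjusted p = 0.418). Setdb1, the related enzyme, moved down: 8.87 and 8.76 in untreated cells, 6.98 and 7.26 in IFN gamma/LPS, 8.74 and 8.63 in IL4/IL13, and 7.86 and 7.52 in LPS/IL4/IL13. It fell by 1.69 ± 0.13 and 1.12 ± 0.13 in the LPS-containing groups, and the LPS/IL4/IL13 arrays lay between those of IFN gamma/LPS and the rest.

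Setd7, a monomethyltransferase that also acts on non-histone proteins, gave the largest fall of its family in every comparison with untreated cells. Its signal was 8.93 and 8.89 in untreated cells, 6.46 and 6.63 in IFN gamma/LPS, 8.32 and 8.18 in IL4/IL13 and 6.16 and 6.23 in LPS/IL4/IL13. It fell by 2.36 ± 0.10 (5.15-fold), 0.66 ± 0.10 and 2.71 ± 0.10 (6.57-fold), with limma adjusted p of 1.85e-09, 0.00071 and 7.02e-10, and no 2 groups overlapped. Kmt2a, which methylates histone H3 at active genes, behaved differently in the LPS-containing groups. It was at 9.48 and 9.45 in untreated cells, 10.54 and 10.51 in IFN gamma/LPS, 9.37 and 9.39 in IL4/IL13 and 9.58 and 9.60 in LPS/IL4/IL13. Only the IFN gamma/LPS arrays stood high, 1.06 ± 0.07 above untreated (adjusted p = 1.16e-07), and LPS/IL4/IL13 was 0.94 below them (adjusted p = 2.1e-06). Kmt2c fell by 0.74 in IFN gamma/LPS and 1.12 in LPS/IL4/IL13, and Kmt2e fell by 0.99 in IFN gamma/LPS.

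Of the 11 histone deacetylases, 2 rose and 8 fell in IFN gamma/LPS, and 2 rose and 7 fell in LPS/IL4/IL13. Of all genes, 23.6% rose and 28.4% fell in IFN gamma/LPS, and 20.3% rose and 25.4% fell in LPS/IL4/IL13. Of the genes above the median signal, 26% rose and 48.9% fell in the first, and 25.7% rose and 43.1% fell in the second. The median log2 changes of the 11 were -0.77 and -0.43. Hdac9, a class IIa deacetylase that shuttles between nucleus and cytoplasm, was highest in LPS/IL4/IL13 and had the largest difference of any member between that group and IFN gamma/LPS. Its signal was 7.39 and 7.56 in untreated cells, 7.98 and 8.09 in IFN gamma/LPS, 8.12 and 8.15 in IL4/IL13 and 9.96 and 9.82 in LPS/IL4/IL13. Both combined arrays lay above every other array, and those of the single treatments lay above untreated and near each other. It rose by 2.42 ± 0.10 (5.33-fold, limma adjusted p = 1.33e-09) against untreated, and was 1.86 above IFN gamma/LPS (3.62-fold, adjusted p = 9.52e-08) and 1.75 above IL4/IL13 (adjusted p = 2.71e-08). Hdac1, a class I deacetylase of corepressor complexes and an example chosen after its values were seen, rose by 1.36 ± 0.11 and 1.31 ± 0.11 in the LPS-containing groups.

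The other class IIa members fell in IFN gamma/LPS, while in LPS/IL4/IL13 only the fall of Hdac5 was firm. Hdac5 was at 9.25 and 9.22 in untreated cells, 6.71 and 6.96 in IFN gamma/LPS, 8.88 and 8.62 in IL4/IL13 and 7.61 and 7.58 in LPS/IL4/IL13, with falls of 2.40 ± 0.12 and 1.64 ± 0.12 in the LPS-containing groups and no overlap between groups. Hdac4 was at 8.56 and 8.39, 6.97 and 6.70, 8.21 and 8.04, and 7.91 and 8.05 in the same order of groups. Its combined arrays overlapped IL4/IL13 and lay above IFN gamma/LPS by 1.14 (limma adjusted p = 2.42e-05). It fell by 1.64 ± 0.12 in IFN gamma/LPS, while the fall of 0.50 in LPS/IL4/IL13 was lost without untreated array 1. A second Hdac4 probe set gave -0.88 in IFN gamma/LPS (adjusted p = 9.93e-06) and 0.10 in LPS/IL4/IL13 (adjusted p = 0.42), and the mean of both gave -1.26 and -0.20, the latter not called (adjusted p = 0.132), so a fall of Hdac4 in LPS/IL4/IL13 rests on 1 probe set. The difference between the LPS-containing groups passed with either, at 0.98 for the second. Hdac7 was at 7.73 and 7.67 in untreated cells, 6.85 and 7.10 in IFN gamma/LPS, 7.35 and 7.66 in IL4/IL13 and 7.27 and 7.32 in LPS/IL4/IL13, with a fall of 0.72 ± 0.12 in IFN gamma/LPS. Its change of -0.405 in LPS/IL4/IL13 lost its call without untreated array 1, untreated array 2 or LPS/IL4/IL13 array 1. With quantile normalization that change was -0.17 and did not pass (limma adjusted p = 0.313). The catalytic subunit of the nuclear corepressor complexes, Hdac3, fell by 1.10 and 0.43.

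Of the 7 sirtuins, NAD-dependent deacylases of nucleus, cytoplasm and mitochondria, 2 rose and 5 fell in IFN gamma/LPS, with a median log2 change of -0.28. Over all genes 23.6% rose and 28.4% fell, and of those above the median signal 26% and 48.9%. Sirt3, Sirt5 and Sirt6 lost their calls in at least 3 of the fits with 1 array left out, which leaves 3 that fell in each of these fits. Sirt1, a nuclear enzyme that deacetylates histones and NF-kB, was at 8.30 and 8.28 in untreated cells, 9.59 and 9.49 in IFN gamma/LPS, 8.32 and 7.98 in IL4/IL13 and 8.59 and 8.41 in LPS/IL4/IL13. Only the IFN gamma/LPS arrays stood clear of the rest. The rise was 1.25 ± 0.12 (2.38-fold, limma adjusted p = 1.79e-06), and LPS/IL4/IL13 was 1.04 ± 0.12 below IFN gamma/LPS (adjusted p = 4.44e-05). Sirt4 and Sirt7, a mitochondrial and a nucleolar sirtuin, fell by 0.84 and 0.75 in IFN gamma/LPS and by 0.84 and 0.86 in LPS/IL4/IL13.

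Of the 7 lysine acetyltransferases, 3 rose and 4 fell in IFN gamma/LPS and 3 rose and 3 fell in LPS/IL4/IL13, beside 23.6% and 28.4%, and 20.3% and 25.4%, of all genes. Of the genes above the median signal, 26% rose and 48.9% fell in IFN gamma/LPS, and 25.7% rose and 43.1% fell in LPS/IL4/IL13. The median log2 changes of the 7 were -0.605 and -0.205. The paralogous coactivators Kat2a and Kat2b, which acetylate histone H3, moved apart. Kat2a was at 8.75 and 8.68 in untreated cells, 7.60 and 7.86 in IFN gamma/LPS, 9.33 and 9.29 in IL4/IL13 and 8.52 and 8.50 in LPS/IL4/IL13. It fell by 0.99 ± 0.10 in IFN gamma/LPS (limma adjusted p = 3.98e-06), rose by 0.59 under IL4/IL13 (adjusted p = 0.00125) and was 0.78 higher in LPS/IL4/IL13 than in IFN gamma/LPS. Kat2b was at 7.27 and 7.29, 8.04 and 8.05, 6.88 and 6.85, and 8.46 and 8.07 in the same order. Its 4 arrays with LPS all lay above the other 4, with rises of 0.77 ± 0.12 and 0.99 ± 0.12. Kat6b, a MYST-family enzyme, was at 7.90 and 7.69 in untreated cells, 6.42 and 5.99 in IFN gamma/LPS, 7.59 and 7.44 in IL4/IL13 and 6.42 and 6.40 in LPS/IL4/IL13. It fell by 1.59 ± 0.14 and 1.38 ± 0.14, while its relative Kat6a rose by 0.64 and 0.76.

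**Figure D3:**
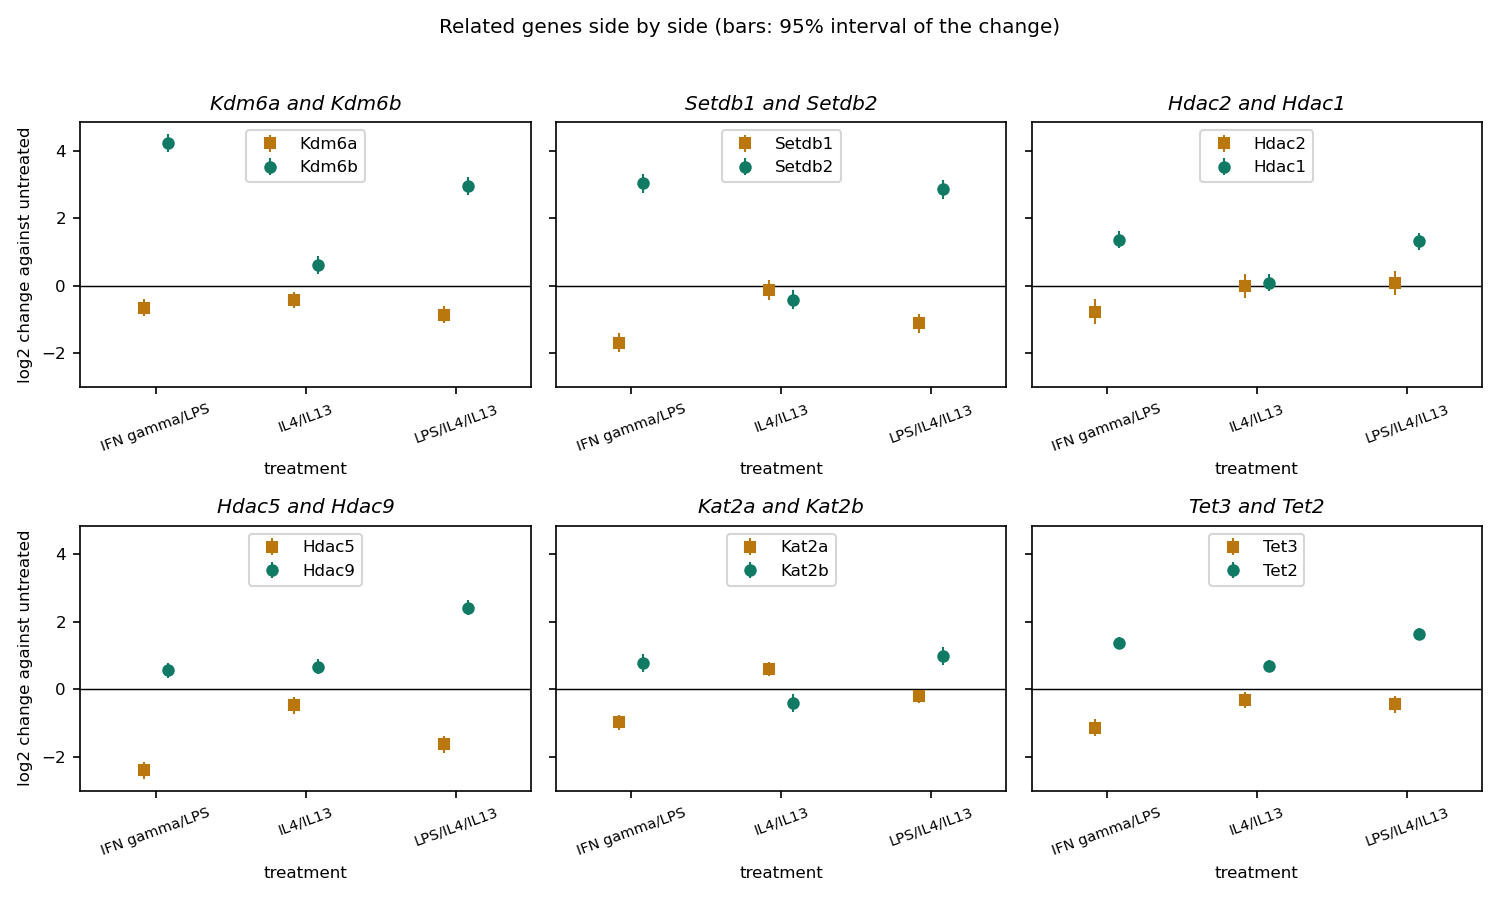
Log2 change against untreated for pairs of related enzymes, with the 3 treatments as separate points and bars of 95% confidence intervals from the limma fit. The pairs were picked after their values were seen, and Kdm6b against Kdm6a (4.22 and -0.65 in IFN gamma/LPS) and Setdb2 against Setdb1 (3.03 and -1.69) lie on opposite sides of 0.

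Of the 12 PRDM proteins, 4 rose and 1 fell in IFN gamma/LPS, and 3 rose and 2 fell in LPS/IL4/IL13, beside 23.6% and 28.4%, and 20.3% and 25.4%, of all genes. The median log2 changes were 0.2025 and 0.1975. Several PRDM genes were dim. Of the genes at or below the median signal, 21.1% rose and 7.84% fell in IFN gamma/LPS (median 0.185). In LPS/IL4/IL13, 14.9% of those rose and 7.61% fell (median 0.155). The rise of Prdm16 in IFN gamma/LPS was lost without untreated array 2 or IFN gamma/LPS array 2. That of Prdm14 in LPS/IL4/IL13 was lost without either untreated array or without LPS/IL4/IL13 array 2. Prdm1, known as Blimp-1, a repressor of inflammatory and B cell genes, was at 9.00 and 9.05 in untreated cells, 9.43 and 9.49 in IFN gamma/LPS, 8.89 and 8.58 in IL4/IL13 and 10.32 and 10.15 in LPS/IL4/IL13. The combined arrays lay highest and IFN gamma/LPS next. It rose by 0.44 ± 0.11 in IFN gamma/LPS and by 1.21 ± 0.11 in LPS/IL4/IL13 (limma adjusted p = 1.34e-06), which was 0.77 above IFN gamma/LPS (adjusted p = 0.000227). Prdm4 rose by 0.55 and 0.56. Prdm9, a germ-cell methyltransferase, gave 0.44 in IFN gamma/LPS and -0.42 in LPS/IL4/IL13, the second of which was lost without untreated array 1, leaving 1 PRDM gene that fell there.

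The TET dioxygenases split by member. Tet2 was at 9.37 and 9.47 in untreated cells, 10.80 and 10.79 in IFN gamma/LPS, 10.06 and 10.16 in IL4/IL13 and 11.05 and 11.07 in LPS/IL4/IL13, with no overlap between groups. It rose by 1.37 ± 0.07 (2.59-fold, limma adjusted p = 1.07e-08), 0.69 ± 0.07 (1.61-fold, adjusted p = 3.38e-05) and 1.64 ± 0.07 (3.12-fold, adjusted p = 2.81e-09), and was the only TET gene called under IL4/IL13. Tet3 was at 9.17 and 9.09, 8.02 and 7.95, 8.78 and 8.83, and 8.85 and 8.50 in the same order of groups. Its IFN gamma/LPS arrays stood apart and low, 1.15 ± 0.11 below untreated, and LPS/IL4/IL13 was 0.69 above them, while its fall of 0.46 against untreated was lost without untreated array 1. Tet1 stayed between 5.11 and 5.54 on all 8 arrays, and its change of 0.32 ± 0.14 in IFN gamma/LPS did not pass (adjusted p = 0.0686).

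Of the 5 DNA methyltransferase entries, Dnmt1 and Dnmt3a (40%) fell in both LPS-containing groups. Of all genes 28.4% fell in IFN gamma/LPS and 25.4% in LPS/IL4/IL13, and of those above the median signal 48.9% and 43.1%. Dnmt1, the maintenance enzyme that copies methylation onto new strands, was at 9.10 and 8.95 in untreated cells, 6.73 and 6.84 in IFN gamma/LPS, 8.57 and 8.39 in IL4/IL13 and 7.28 and 7.22 in LPS/IL4/IL13. No groups overlapped, with falls of 2.24 ± 0.10 (4.72-fold, limma adjusted p = 3.19e-09) and 1.77 ± 0.10 in the LPS-containing groups. The fall of 0.54 under IL4/IL13 was lost without untreated array 1. Dnmt3a, which sets new methylation, was at 8.43 and 8.33, 7.58 and 7.63, 8.32 and 8.29, and 7.69 and 7.43 in the same order, with falls of 0.78 ± 0.11 and 0.82 ± 0.11. Dnmt3b and Dnmt3l did not pass against untreated in any treatment. Dnmt3aos, at 0.30 under IL4/IL13, just missed (limma adjusted p = 0.0507) and passed under 6 of the alternatives that leave out no array of the groups compared, such as quantile normalization (adjusted p = 0.037).

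The replication and mitosis genes moved with Dnmt1. Of 19 measured, 16 fell and 1 rose in IFN gamma/LPS (median log2 change -1.17), 4 fell under IL4/IL13 and 17 fell in LPS/IL4/IL13 (median -1.065). Over all genes 28.4%, 12.3% and 25.4% fell, and 48.9%, 21.8% and 43.1% of those above the median signal, so the 4 under IL4/IL13 are near that share. The gene that rose, Tyms, at 0.29, was lost without untreated array 1 and without either IFN gamma/LPS array. Ccna2, a cyclin of S phase and mitosis, fell by 3.07 and 2.34, and Mcm7, a helicase subunit, by 1.37 and 1.48, while Pcna, a replication clamp, gave 0.10 and 0.19 and did not pass. Their part in the falls of Dnmt1 and other members was not tested. Uhrf1, which recruits Dnmt1 to replicated DNA, fell by 0.53 and 0.61.

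**Figure D4:**
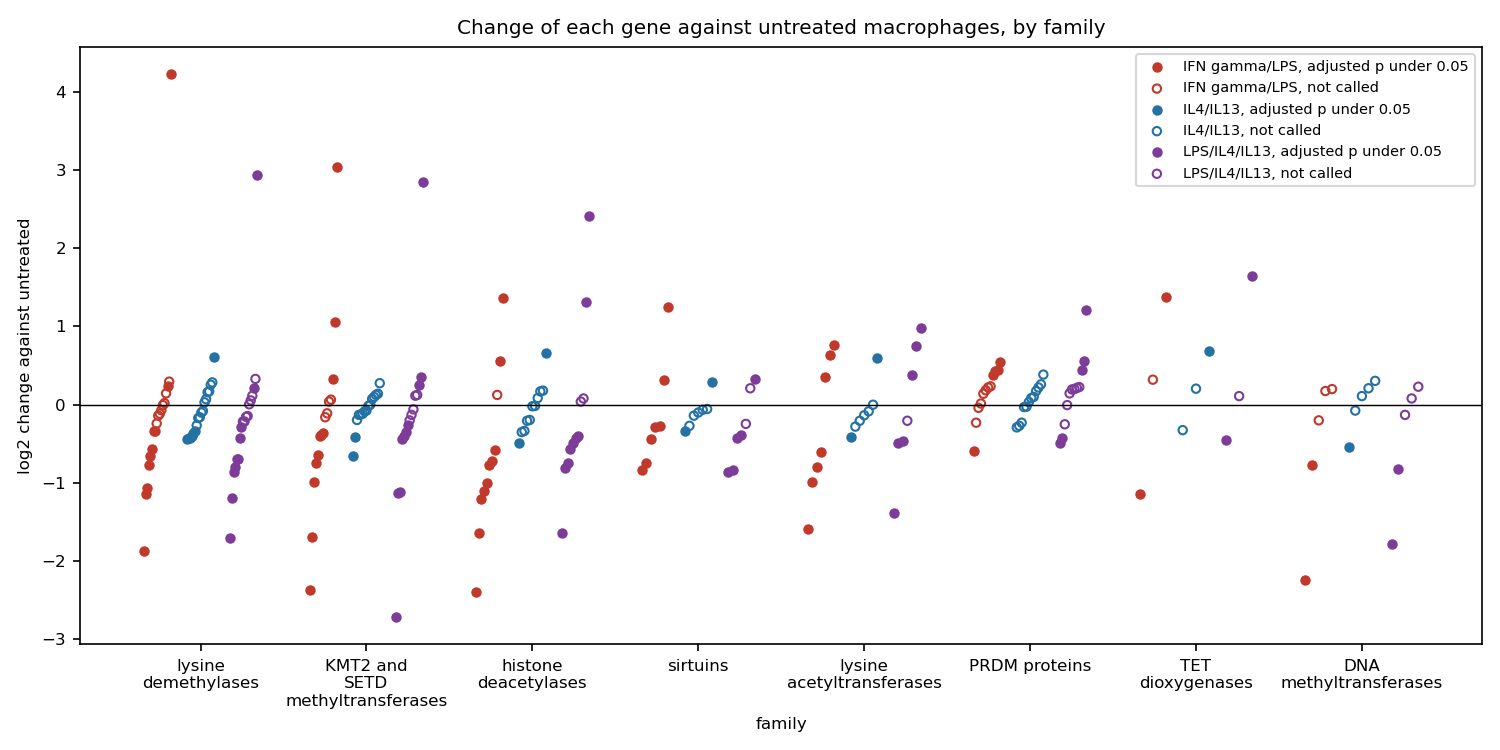
Log2 change of each member against untreated in the 3 treatments, 1 point per member, grouped by family, filled where the limma adjusted p was under 0.05. Kdm6b at 4.22 and Setdb2 at 3.03 are the highest points, and the IL4/IL13 points all lie within 1 log2 unit of 0.

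Against IFN gamma/LPS, LPS/IL4/IL13 had 20 members higher and 9 lower, beside 12.1% and 7.62% of all genes (19.7% in either direction) and 22.8% and 12.9% of the genes above the median signal, where 20 and 8 of the 61 members lay. Of these, 10 higher and 5 lower held in every fit with 1 array left out, and the count higher was 10 without IFN gamma/LPS array 1 and 13 without IFN gamma/LPS array 2. By family the most calls higher were 6 of 11 deacetylases and 5 of 15 KMT2 and SETD methyltransferases, and the largest share was 2 of 3 TET dioxygenases. This order is not firm. Of these methyltransferases only Kmt2e, and of the TET genes only Tet3, kept the call in every fit with 1 array left out. The deacetylases were Hdac9 by 1.86, Hdac4 by 1.14, Hdac2 by 0.85, Hdac5 by 0.76, Hdac3 by 0.67 and Hdac6 by 0.39. The call of Hdac6 was lost in every fit with 1 array left out. The IFN gamma/LPS arrays enter this comparison and that with untreated cells with opposite signs, so a fall in the one and a higher value in the other are not independent. At least 2-fold differences were seen for 4 members, Hdac9 and Hdac4 higher and Kdm6b and Sirt1 lower, beside 1.68% higher and 1.63% lower of all genes. The comparisons of both groups with untreated cells share the untreated arrays, so their values stand side by side here and no correlation between them is given.

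**Figure D5:**
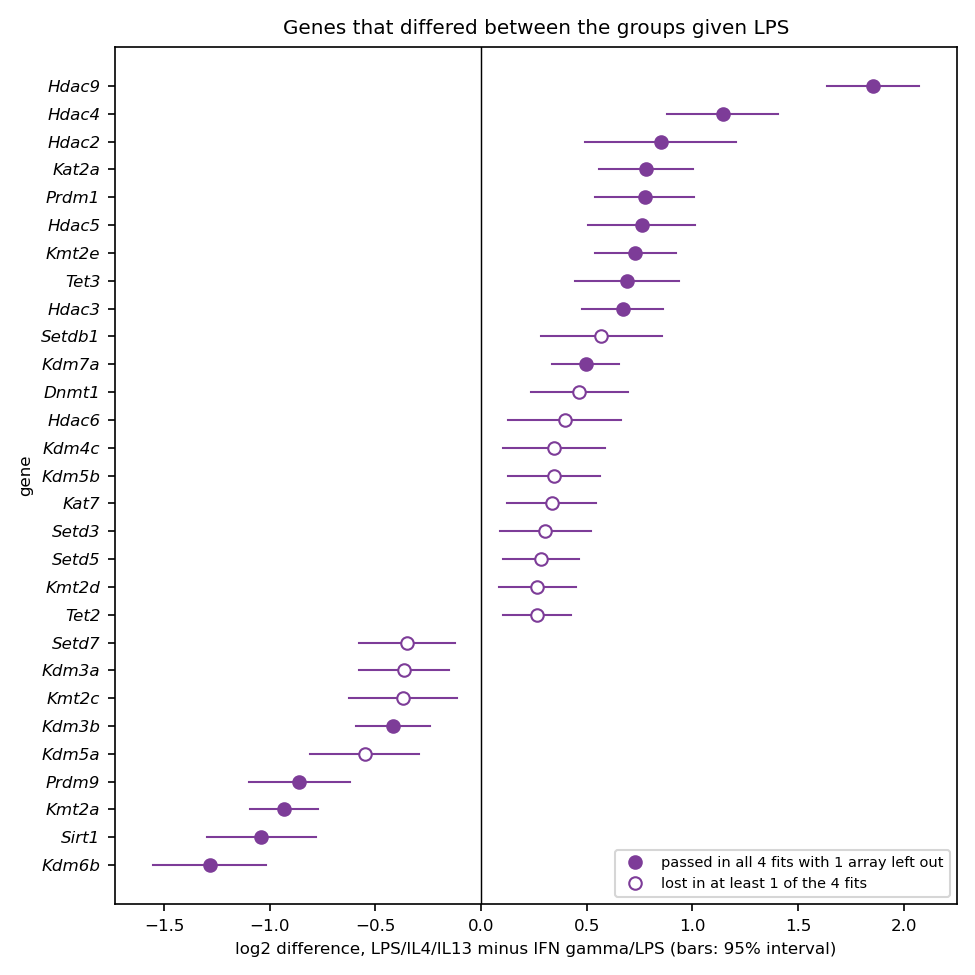
Log2 difference between LPS/IL4/IL13 and IFN gamma/LPS for the 29 members called between these groups, with bars of 95% confidence intervals and filled points where the call held in all 4 fits with 1 array left out. Hdac9 (1.86) and Hdac4 (1.14) lie farthest to the right and Kdm6b (-1.28) and Sirt1 (-1.04) farthest to the left.

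Against IL4/IL13, LPS/IL4/IL13 had 14 members higher and 33 lower, beside 14.1% and 22.6% of all genes (36.7% in either direction) and 24.3% and 38.8% of those above the median signal. The count lower was 20 without IL4/IL13 array 1. At least 2-fold, 6 members were higher and 5 lower, beside 5.34% and 5.82% of all genes. Setdb2 was 3.26 higher, Kdm6b 2.32, Hdac9 1.75 and Kat2b 1.40, and Setd7 was 2.05 lower. IFN gamma/LPS had 12 higher and 36 lower than IL4/IL13, beside 15.5% and 26.1% of all genes (41.6% in either direction) and 24.3% and 45.3% of those above the median signal. At least 2-fold, 6 were higher and 10 lower, beside 6.31% and 8.84% of all genes. These 6 and 10 were all among the 61 members above the median signal, beside 1156 and 1642 of 9967 such genes. Kdm6b was 3.61 and Setdb2 3.45 higher, and Hdac5 was 1.92, Setd7 1.71, Dnmt1 1.69 and Kat2a 1.58 lower. Hdac9 did not differ by the test between these groups (-0.10, adjusted p = 0.495 by limma).

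Other chromatin genes outside the families were read from lists chosen by function. Most of these genes lay above the median signal, where 26% of genes rose and 48.9% fell in IFN gamma/LPS (median log2 change -0.25) and 25.7% rose and 43.1% fell in LPS/IL4/IL13 (median -0.15), and every count in the lists is to be read beside those shares. Of 21 other histone methyltransferases, 4 rose and 11 fell in IFN gamma/LPS and 7 rose and 11 fell in LPS/IL4/IL13 (medians -0.525 and -0.37). The paralogous Polycomb enzymes split: Ezh2 rose by 0.67 and 1.03 and Ezh1 fell by 1.07 and 1.34. Dot1l, which methylates the core of histone H3, rose by 1.15 and 1.64. Kmt5c, which methylates histone H4, fell by 2.09 and 1.87.

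Of 9 other acetyltransferases and coactivators, 1 rose and 6 fell in IFN gamma/LPS and 1 rose and 5 fell in LPS/IL4/IL13 (medians -0.37 and -0.345). The one that rose in each was Hat1, which acetylates new histone H4 before its deposition, by 2.45 and 1.77. Ncoa1, a nuclear receptor coactivator, fell by 1.88 and 0.58. The coactivators Ep300 and Crebbp gave changes between -0.15 and 0.15 and did not pass against untreated. Of 8 other demethylases, 3 rose and 3 fell in IFN gamma/LPS and 2 rose and 3 fell in LPS/IL4/IL13 (medians 0.1175 and 0.0075), with Riox2, a nucleolar oxygenase, up by 1.66 and 2.10.

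Of 16 Polycomb and MLL partners, 4 rose and 10 fell in IFN gamma/LPS and 4 rose and 8 fell in LPS/IL4/IL13, with 2 rising there without untreated array 2 (medians -0.435 and -0.2275). Jarid2, which recruits Polycomb, rose by 1.14 and 1.84, and the chromobox reader Cbx7 fell by 1.69 and 1.63. Of 18 deacetylase corepressor partners, 3 rose and 13 fell and 3 rose and 10 fell (medians -0.4475 and -0.265). Tbl1xr1, a scaffold of the corepressor with Hdac3, fell by 1.82 and 2.41, while Sap30, of the Sin3 complex with Hdac1, rose by 1.80 and 1.82. Of 17 readers and DNA demethylation genes, 2 rose and 11 fell in each (medians -0.49 and -0.61), and Idh1, which makes the oxoglutarate that TET and Jumonji enzymes consume, fell by 3.71 in the first and fell by 2.53 in the second. The methyl-DNA reader Mbd2 rose by 0.98 and 1.19.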

How the data were processed

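The authors deposited 1 log2 signal per probe set and array (range 1.46 to 13.71, array medians 6.12 to 6.20), which the labels name a MAS5 signal. That they are log2 follows from their range; how the authors corrected background and normalized arrays is not given in the sources used here. Total RNA had a RIN above 9, per the labels' protocols. The values came without detection calls, and the number of arrays limits the precision.

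Of 35556 probe sets, 21789 carried 1 gene symbol, 1621 several and 12146 none. The brightest stood for each of 19938 genes. A single limma 3.58.1 fit in R 4.3.3 over the 4 groups (trend, 4 residual and 7.55 prior degrees of freedom, no filter on dim genes) gave 6 comparisons, each adjusted by Benjamini-Hochberg over all genes and called under 0.05. The fit was also run on simulated data with far fewer changed genes than were called here, and no result above rests on that run. All 78 members matched the RefSeq gene table (GRCm38.p6).

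Values per array are given for the 15 members with the largest called changes of at least 2-fold, for a list of members of interest, and for up to 4 examples per family by change alone. Members and gene lists were chosen with earlier results of these data known. Alternatives were quantile normalization, median centring, averaging over probe sets, leaving out dim genes, no trend, robust eBayes, only the 4 arrays compared, a replicate block and leaving out each array.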

Additional observations from a re-analysis of the deposited data

Results flagged for a closer look

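For 10 genes of the families the array holds more than 1 probe set, and the 11 probe sets not used above gave 66 comparisons. Of these, 16 were called in the same direction as the probe set used, 9 were called where it was not, 10 were not called where it was, and 1 was called in the opposite direction.

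The 9 calls seen only in a probe set not used were as follows (limma, adjusted over 21789 probe sets). For Prdm2, the other probe set gave 0.46 in IFN gamma/LPS against untreated, 0.795 in LPS/IL4/IL13 against untreated and 0.52 in LPS/IL4/IL13 against IL4/IL13. The other Tet1 probe sets rose by 0.34 and 0.44 in IFN gamma/LPS against untreated, close to the 0.32 of the probe set used. For Setd3, the other probe set gave -0.595 in IL4/IL13 against untreated and 0.415 in LPS/IL4/IL13 against IL4/IL13. In that last comparison the other Hdac4 probe set gave 0.365 and the other Tet3 probe set -0.33.

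The opposite pair was Kdm7a in LPS/IL4/IL13 against IL4/IL13, where the other probe set gave 0.495 (limma adjusted p = 0.00579) and the one used -0.20 (adjusted p = 0.0479). The direction of Kdm7a in that comparison is therefore not settled by this array.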

How the results depend on the processing

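The number of members called under IL4/IL13 against untreated, 16 (5 higher, 11 lower), became 30 (9 and 21) in a fit of those 4 arrays alone, and 5 to 12 (3 to 5 and 1 to 7) with 1 array left out. The 29 members called in LPS/IL4/IL13 against IFN gamma/LPS (20 higher) became 17 (11 higher) in a fit of those 4 arrays alone, 17 to 27 (10 to 19 higher) with 1 array left out, and 13 higher without the mean-variance trend. In LPS/IL4/IL13 against IL4/IL13 the members lower, 33, were 20 to 33 with 1 array left out. The other 198 counts over all members stayed within 1.5 times. With probe sets averaged per gene, Kdm7a in LPS/IL4/IL13 became 0.01 against untreated and 0.1475 against IL4/IL13, and Prdm2 in that group became 0.395 against untreated, each opposite in sign to the value used. Of the members' log2 changes under the alternatives, 5177 stayed on the same side of the threshold (130 of them, called in neither fit, with the other sign), 281 lost a call, 83 gained one and 3, those just given, turned with a call on one side. The causes were not tested.

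The replicate numbers did not pair the arrays: deviations of same-numbered arrays correlated between -0.358 and 0.217 over the 6 pairs of groups. With the replicate block, 54 members were called in IFN gamma/LPS, 17 in IL4/IL13 and 48 in LPS/IL4/IL13 against untreated. With 2 arrays a group and no detection calls, small changes and low levels such as those of Tet1 remain uncertain.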
